A study of Mus musculus with 9 samples.

Results

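This account covers 47 imprinted mouse genes in brown adipose tissue, chosen by name from a list of genes with allele-biased expression and matched to the gene symbols of the RNA-seq tables. All 47 were above 0 in at least 1 library, of 18933 such symbols among 24356 listed, and 41 were above 0 in all 9 libraries and could be tested together with 14675 genes in all. Igf2 and Mcts2 were set apart because their differences were known before the list was drawn up. The libraries came from GHRH-KO mice, in which the gene for growth hormone releasing hormone is targeted, and from littermate wild-type (WT) mice on a mixed background of C57BL6 and 129SV. There were 2 KO females, 2 KO males, 3 WT females and 2 WT males, each library from one animal's snap-frozen tissue, on ad libitum chow. The age of the animals is not given in the sources used here. Values are FPKM (fragments per kilobase of transcript, scaled to the size of the library), the authors' gene-level estimates, and the error behind each value is the spread between animals because fragment counts are not used here. The p-values below set differences against that spread in these 9 animals, which limma estimates with help from all genes tested. Differences are on log2 FPKM with no pseudocount.

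Imprinted genes are transcribed mainly or only from the copy inherited from one parent, and the choice is carried by DNA methylation laid down in the egg or sperm. They lie in clusters that share a control region, so that a paternally expressed gene such as Igf2 and a maternally expressed one such as H19 often sit side by side. Many act on fetal growth, on the insulin and IGF pathways, or on adipocyte precursors, and imprinting of some of them is limited to certain tissues or isoforms. The tables hold 1 value per gene, so they do not say which parental copy was transcribed.

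The targeted gene itself was above 0 only in libraries labelled KO, the opposite of a transcript missing in KO. Which allele gave this transcript was not tested. Libraries labelled WT all listed Ghrh at 0, while KO female 1, KO female 2, KO male 1 and KO male 2 had 0.846, 0.233, 0.799 and 0.470 FPKM of it. The groups did not overlap (exact permutation p = 0.00794, two-sided, the smallest that 9 libraries allow). Igf1, which growth hormone induces, had a negative difference that missed the threshold (-1.84, limma adjusted p = 0.0661). Because of Ghrh, every direction below compares libraries labelled KO with libraries labelled WT. Library sums ran from 380558 to 443569 FPKM. KO male 1 stood apart, with Spearman correlations of 0.924 to 0.934 to the other 8 libraries, where the others reached 0.981 to 0.991 with their nearest library.

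The members covered a wide range of levels. Gnas, which encodes the G protein subunit that couples adrenergic receptors to cyclic AMP, averaged 2618 FPKM over the 9 libraries, and the tetraspanin gene Cd81 averaged 176 FPKM. In all, 13 members averaged at least 10 FPKM, 17 lay between 1 and 10 FPKM, and 17 were below 1 FPKM. The 6 members that could not be tested were the lowest of these apart from Kcnq1ot1. Zim1, a zinc finger gene, was listed at 0 in 1 library and otherwise reached 0.192 FPKM. The RAS exchange factor gene Rasgrf1 was listed at 0 in 2 libraries and reached 0.0926 FPKM. Ascl2, Rtl1, Phlda2 and Usp29, known mostly from placenta, muscle or brain, were listed at 0 in 6, 6, 8 and 8 of the 9 libraries.

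Across the tested members, 5 of 41 passed an adjusted p of 0.05 for KO minus WT averaged over the sexes, against 3.60% of all genes tested (limma, Benjamini-Hochberg over 14675 genes). Igf2 and Mcts2 were listed with their differences known, and without them 3 of 39 passed (7.69%). Igf2, H19 and Mcts2 were higher in libraries labelled KO, where 1.43% of all genes were called higher. Blcap and Cd81 were lower, where 2.17% of all genes were called lower. At an unadjusted p under 0.05 in limma there were 19 members, or 17 of 39 without Igf2 and Mcts2 (43.6%), and 20.2% of all genes. In the ordinary linear model, fitted gene by gene, 7 members had an unadjusted p under 0.01 (7.54% of all genes), Igf2 and Mcts2 among them. Without KO male 1 the limma count was 4, and it ran from 1 to 7 as single libraries were left out. The median difference of the 41 members was -0.19 on the log2 scale, with 29 negative values, beside -0.07 and 9173 of 14675 negative values for all genes tested. KO and WT libraries did not overlap for 7 of the 41 members (17.1%) and for 9.07% of all genes. Of these members Igf2, H19, Mcts2 and H13 were above every WT library (9.76%, against 3.03% of all genes) and Blcap, Peg10 and Kcnq1 were below every WT library (7.32%, against 6.04%). Without Igf2 and Mcts2, 5 of 39 did not overlap (12.8%) and 2 of 39 were above every WT library (5.13%).

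**Figure D1:**
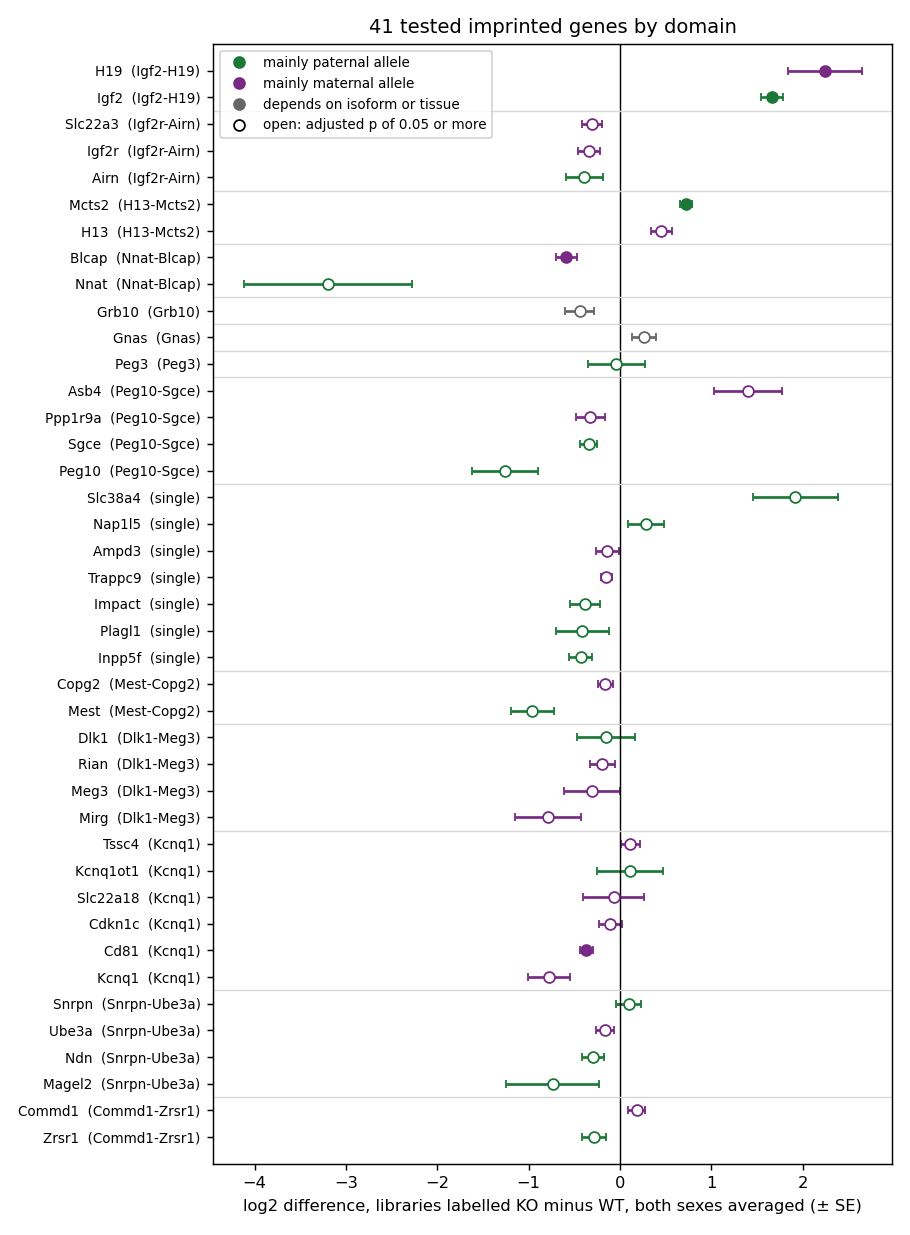
Difference in log2 FPKM between libraries labelled KO and WT, averaged over the sexes, for the 41 tested members, with bars of 1 SE, ordered by imprinted domain and coloured by the parental copy each gene is mainly expressed from. Filled points have a limma adjusted p under 0.05: Igf2, H19 and Mcts2 on the positive side, Blcap and Cd81 on the negative side, while Nnat has the lowest value (-3.20) with a wide bar.

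Igf2 encodes insulin-like growth factor 2, a fetal growth factor made from the paternal copy, and H19 is a noncoding RNA made from the maternal copy of the same domain. The genes lie 72.6 kb apart on chromosome 7, H19 at chr7:142575529-142578143 and Igf2 at chr7:142650766-142666816 (GRCm38), both on the minus strand. They are known to compete for shared enhancers across a control region that binds the CTCF protein only when unmethylated. Igf2 starts from several promoters. RefSeq gives 4 windows of 300 bases around its starts, and those with the fewest and the most CpG dinucleotides are printed 5′ to 3′ on the minus strand with every CpG in capitals, since CpG is where methylation sits (2 and 24 CpG).
Igf2 chr7:142666767-142667066: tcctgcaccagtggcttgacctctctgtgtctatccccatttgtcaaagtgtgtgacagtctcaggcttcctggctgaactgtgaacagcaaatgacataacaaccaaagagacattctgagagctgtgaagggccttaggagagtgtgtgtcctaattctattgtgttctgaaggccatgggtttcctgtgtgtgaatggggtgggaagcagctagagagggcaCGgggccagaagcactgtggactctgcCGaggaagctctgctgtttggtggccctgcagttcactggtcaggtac
Igf2 chr7:142658755-142659054: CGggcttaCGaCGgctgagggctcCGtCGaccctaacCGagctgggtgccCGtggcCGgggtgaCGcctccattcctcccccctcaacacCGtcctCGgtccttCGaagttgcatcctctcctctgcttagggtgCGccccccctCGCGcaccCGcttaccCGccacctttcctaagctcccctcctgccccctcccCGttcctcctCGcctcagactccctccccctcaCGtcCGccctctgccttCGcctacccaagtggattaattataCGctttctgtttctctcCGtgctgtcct

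The KO females had 24.9 and 20.2 FPKM of Igf2, and the KO males had 12.1 and 10.7 FPKM. In WT libraries it was 4.42, 6.10 and 5.24 FPKM in females and 4.82 and 4.89 FPKM in males. The groups did not overlap, and the KO females lay above the KO males. The difference was 1.67 on the log2 scale (SE 0.12, limma adjusted p = 0.00356), a 3.17-fold higher level, and its call held in all 18 alternatives. By exact permutation of the 9 libraries p was 0.00794, two-sided. Gm49394, a gene model lying over Igf2 that is not analysed here, contains 61.2% of the 50-base stretches of Igf2, so the split of fragments between the pair is unknown.

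H19 reached 65.7, 51.1, 35.3 and 78.7 FPKM in KO female 1, KO female 2, KO male 1 and KO male 2. The WT females had 25.0, 16.8 and 12.2 FPKM and the WT males 14.0 and 4.45 FPKM. No library labelled KO fell below a library labelled WT. The difference was 2.25 (SE 0.40, limma adjusted p = 0.0362), or 4.74-fold, with an exact permutation p of 0.0159, two-sided. Its call was lost when either KO female, any one WT female or WT male 2 was left out, with adjusted p of 0.0723 to 0.144 and differences of 1.83 to 2.38. It was also lost without a filter (adjusted p = 0.0568), under median centring (0.0514) and without the mean-variance trend (0.0703). So both partners of the domain, expressed from opposite parental copies, were higher in libraries labelled KO than in WT. They did not rise together within a label, as KO male 2 and WT female 1 were each highest for H19 and lowest for Igf2. The other libraries labelled KO had the same order for both genes.

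Transcripts of skeletal muscle differed between the same groups. The summed FPKM of 9 muscle markers (Acta1, Ckm, Myh1, Myh2, Myh4, Tnnt3, Mylpf, Actn3 and Pvalb, none listed at 0 in any library) was 4250, 1898, 8804 and 4468 in KO female 1, KO female 2, KO male 1 and KO male 2. The sums were 1615, 1078 and 838 in the WT females and 1437 and 305 in the WT males, so the groups did not overlap (exact permutation p = 0.00794, two-sided). All 9 markers had positive differences and 3 of them (Acta1, Myh1 and Mylpf) passed the test. Within WT, H19 was highest in the library with the highest muscle sum (WT female 1) and lowest in that with the lowest sum (WT male 2). Within KO the order differed, since KO male 1 had the highest muscle sum and the lowest H19. Igf2 had its lowest WT value in WT female 1, and among libraries labelled KO it was lower in KO male 1, with the highest muscle sum, than in KO female 2, with the lowest. The part of muscle RNA in the rise of either gene was not tested. In bulk tissue more cells of a type and more RNA per cell cannot be told apart.

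**Figure D2:**
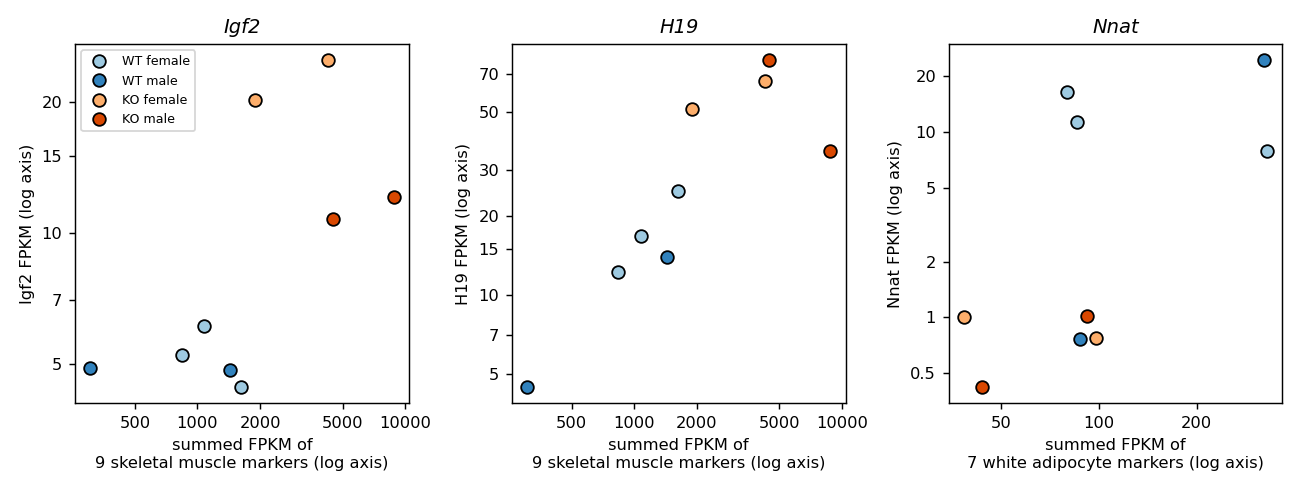
FPKM of Igf2, H19 and Nnat (log axes) against summed FPKM of marker genes in the same library, 9 skeletal muscle markers for Igf2 and H19 and 7 white adipocyte markers for Nnat. Each point is 1 library, coloured by label and sex. Libraries labelled KO lie between 1898 and 8804 for muscle, above the 305 to 1615 of WT, and WT male 1 sits among the libraries labelled KO for Nnat.

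The genes around IGF2 action gave smaller values. Igf2r, the maternally expressed receptor that carries IGF2 to lysosomes, ran from 4.99 to 6.74 FPKM in libraries labelled KO and from 5.40 to 8.39 FPKM in WT (log2 difference -0.33, SE 0.12, limma adjusted p = 0.168). Airn, the antisense RNA that silences the paternal Igf2r copy, was at 4.50, 2.18, 2.58 and 2.59 FPKM in KO and 3.15 to 4.34 FPKM in WT (-0.39, SE 0.20, adjusted p = 0.342). Slc22a3, an organic cation transporter of the same domain, had a difference of -0.31 (SE 0.11, adjusted p = 0.186). Grb10, an adaptor that restrains the insulin and IGF1 receptors, was at 3.65, 3.42, 3.27 and 2.52 FPKM in KO and 3.23 to 5.27 FPKM in WT (-0.44, SE 0.16, adjusted p = 0.165). KO and WT overlapped in each of these 4 genes.

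Of 15 listed binding partners of IGF2 and their relatives, 12 were tested and 0 passed in limma, beside 3.60% of all genes. At an unadjusted p under 0.05 there were 3 of the 12 (20.2% of all genes), and at a p under 0.01 in the ordinary linear model 0 (7.54%). Igf1, the growth factor that growth hormone induces, had the lowest p. It was at 0.713, 0.892, 2.46 and 1.28 FPKM in libraries labelled KO and 2.13 to 8.80 FPKM in WT (-1.84, SE 0.45, adjusted p = 0.0661). Igfbp5, a secreted IGF binding protein, followed with 16.1 to 18.95 FPKM in KO and 18.4 to 32.8 FPKM in WT (-0.47, SE 0.12, adjusted p = 0.0745). The growth hormone receptor gene Ghr was below every WT library, at 42.2 to 51.6 FPKM against 62.8 to 155 FPKM (-0.98, SE 0.24, adjusted p = 0.0660).

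Mcts2 is a retrogene, an intronless copy of the X-linked gene Mcts1, whose protein acts in translation initiation. It lies at chr2:152687035-152687946 (GRCm38) within its host gene H13, which encodes signal peptide peptidase and runs from 152669461 to 152708670 on the same strand. The paternal copy of Mcts2 is the active one, and H13 is known to end its transcripts at different sites on the maternal and paternal copies. The starts of both genes are printed because the pair shares a strand and differs in imprinting. They are RefSeq windows of 300 bases on GRCm38.p6, plus strand, with each CpG in capitals (25 for Mcts2 and 21 for H13).
Mcts2 chr2:152686898-152687197: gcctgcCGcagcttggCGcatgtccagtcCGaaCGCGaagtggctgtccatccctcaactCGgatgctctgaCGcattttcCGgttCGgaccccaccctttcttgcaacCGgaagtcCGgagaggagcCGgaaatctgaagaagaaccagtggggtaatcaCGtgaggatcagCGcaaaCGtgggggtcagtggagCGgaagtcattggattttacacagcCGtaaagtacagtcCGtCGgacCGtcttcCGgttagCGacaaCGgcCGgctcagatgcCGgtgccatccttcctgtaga
H13 chr2:152669211-152669510: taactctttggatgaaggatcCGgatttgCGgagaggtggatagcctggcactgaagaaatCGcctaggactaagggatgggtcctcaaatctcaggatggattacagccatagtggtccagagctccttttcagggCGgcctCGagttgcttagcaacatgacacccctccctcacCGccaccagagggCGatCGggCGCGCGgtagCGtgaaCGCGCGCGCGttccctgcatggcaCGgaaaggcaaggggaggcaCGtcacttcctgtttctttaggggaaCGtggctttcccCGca

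For Mcts2 the KO females reached 17.9 and 17.5 FPKM, while 13.4 and 13.2 FPKM were seen in the KO males. The WT females had 8.27, 8.84 and 9.13 FPKM and the WT males 9.72 and 9.99 FPKM. Both KO groups lay above all WT libraries, and replicates of a group differed little. The difference was 0.73 (SE 0.07, limma adjusted p = 0.0117), a 1.65-fold higher level, with an exact permutation p of 0.00794, two-sided. It was lost in 1 alternative, without KO female 1 (adjusted p = 0.0826, difference 0.72).

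The parent gene Mcts1 did not follow it, at 21.9 to 25.6 FPKM in libraries labelled KO and 21.1 to 29.8 FPKM in WT (-0.10, SE 0.09, limma adjusted p = 0.605). Of the 50-base stretches of Mcts2, 0.695% occur in transcripts of any other gene. H13 was at 24.8, 22.3, 23.8 and 19.3 FPKM in KO and 17.1, 14.9, 17.1, 14.3 and 18.8 FPKM in WT. These groups did not overlap (exact permutation p = 0.00794, two-sided), but the difference of 0.45 missed the threshold (SE 0.11, limma adjusted p = 0.0676). H13 passed under median centring (adjusted p = 0.0344), quantile normalization (0.0387) and without KO male 2 (0.0436).

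**Figure D3:**
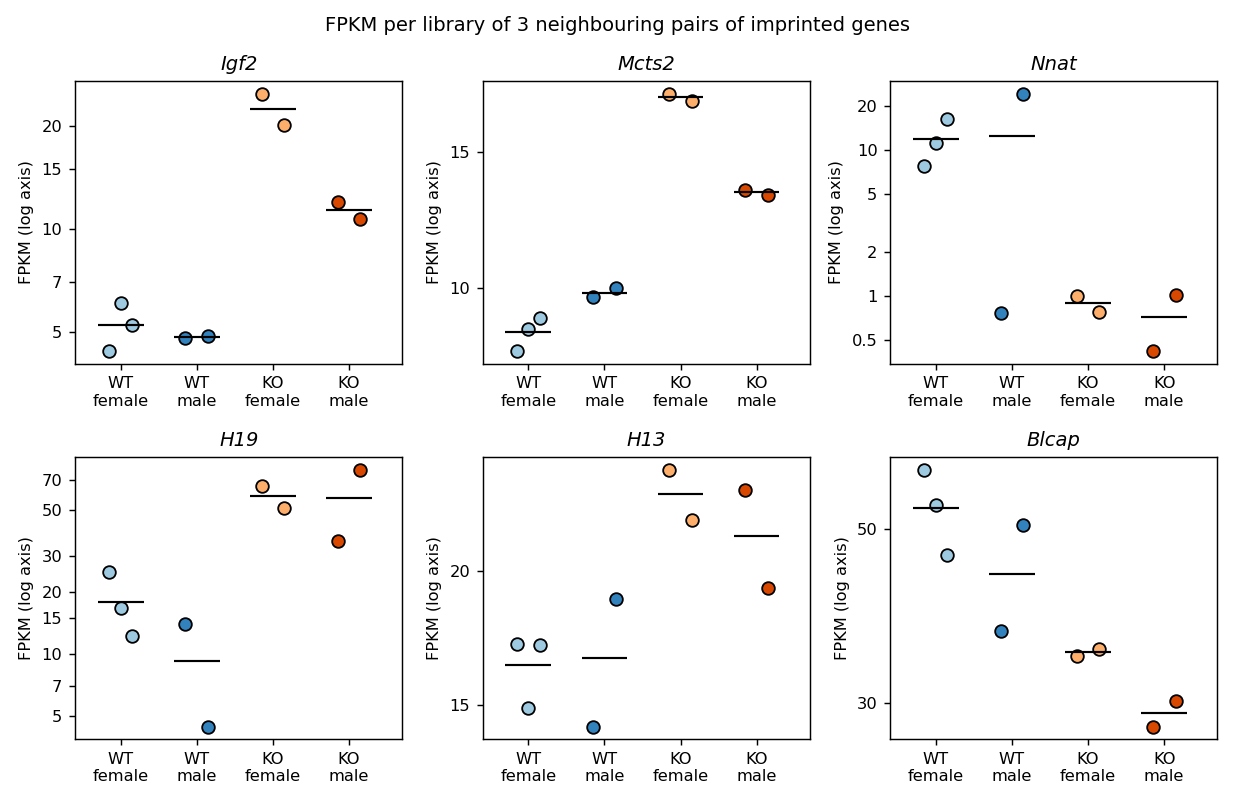
FPKM (log axis) of 3 neighbouring pairs in every library, with Igf2 above H19, Mcts2 above H13 and Nnat above Blcap. Points are libraries and lines are group means. Igf2, H19, Mcts2 and H13 lie above WT in all 4 libraries labelled KO, Blcap lies below, and for Nnat WT male 1 (0.763 FPKM) falls among them.

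Blcap and Nnat form a second domain of the same chromosome with a gene inside a gene. Nnat encodes neuronatin, a small membrane protein of the endoplasmic reticulum expressed in neurons and adipose tissue from the paternal copy, and Blcap is its broadly expressed host. Nnat lies at chr2:157560078-157562522, on the plus strand, within Blcap at chr2:157556362-157571274, on the minus strand. This domain is 209 kb from Ghrh (chr2:157329497-157347506), with Gnas 16937 kb from Ghrh on the same side and Mcts2 4642 kb away on the other side. The effect of distance from the targeted gene was not tested. Both starts are printed with CpG in capitals, 17 in each window, the Nnat window from the plus strand and the Blcap window from the minus strand.
Nnat chr2:157559828-157560127: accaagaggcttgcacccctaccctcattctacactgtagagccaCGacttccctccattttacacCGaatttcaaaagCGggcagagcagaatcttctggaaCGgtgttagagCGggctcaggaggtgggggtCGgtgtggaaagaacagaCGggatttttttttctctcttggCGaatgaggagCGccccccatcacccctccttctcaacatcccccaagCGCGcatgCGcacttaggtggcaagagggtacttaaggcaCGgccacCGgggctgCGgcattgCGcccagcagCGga
Blcap chr2:157566312-157566611: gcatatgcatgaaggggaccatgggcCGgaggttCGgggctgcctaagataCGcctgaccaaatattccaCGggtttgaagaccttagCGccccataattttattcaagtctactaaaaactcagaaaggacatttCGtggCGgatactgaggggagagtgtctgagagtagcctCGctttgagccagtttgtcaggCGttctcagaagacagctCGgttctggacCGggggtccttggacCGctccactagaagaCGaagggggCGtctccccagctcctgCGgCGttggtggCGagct

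Blcap was at 34.5, 35.2, 28.0 and 30.2 FPKM in KO female 1, KO female 2, KO male 1 and KO male 2. The WT females had 59.5, 53.6 and 46.4 FPKM and the WT males 37.1 and 50.5 FPKM. The lowest WT library, WT male 1, lay just above the highest library labelled KO. Blcap fell by 0.59 on the log2 scale (SE 0.11), with a limma adjusted p of 0.0406 and a two-sided exact permutation p of 0.0159. Leaving out any library other than KO male 2 or WT male 1 ended the call, with adjusted p of 0.0617 to 0.158. So did dropping the filter (0.0596), median centring (0.0909) and dropping the mean-variance trend (0.0769).

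The 4 KO values of Nnat were 1.01, 0.778, 0.421 and 1.02 FPKM. In WT females it was 7.85, 11.3 and 16.5 FPKM, and the WT males split, with 0.763 FPKM in WT male 1 and 24.3 FPKM in WT male 2. Hence the difference of -3.20 had a large error (SE 0.92), with a limma adjusted p of 0.0983 and a two-sided exact permutation p of 0.0397. Without WT male 1 it was -4.45 with an adjusted p of 0.00625. White adipocyte markers varied beside it. The sum of 7 markers (Lep, Slc7a10, Hoxc8, Hoxc9, Hoxc10, Npr3 and Retn) was 38.5 to 98.0 FPKM in KO and 79.9 to 330 FPKM in WT, with 87.6 in WT male 1 and 321 in WT male 2. The WT females did not follow this order, as the sum was 330 in WT female 1, with the lowest Nnat of the 3, and 85.7 and 79.9 in WT females 2 and 3, below that of WT male 1. Hoxc10 was listed at 0 in every library and Hoxc9 in 7 of them, and Lep, the leptin gene, was at 0.580 to 2.66 FPKM in KO and 5.44 to 23.0 FPKM in WT. The part of white adipocyte RNA in the Nnat values was not tested.

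The last member past the threshold was Cd81, a tetraspanin gene at the edge of the Kcnq1 domain on chromosome 7. It was at 178, 167, 136 and 124 FPKM in libraries labelled KO and 215, 199, 207, 167 and 195 FPKM in WT, so that WT male 1 overlapped with the KO females and the KO males lay below all WT libraries. Cd81 fell by 0.37 on the log2 scale (SE 0.07), with a limma adjusted p of 0.0406 and a two-sided exact permutation p of 0.0317. Leaving out either KO female, any WT female or WT male 2 ended the call, with adjusted p of 0.0886 to 0.140. It also ended without a filter (0.0568), under median centring (0.145), without the trend (0.0868) and without a sex term (0.116). Markers of progenitors and fibroblasts moved the same way, with a sum of 73.0 to 86.4 FPKM in KO and 86.5 to 172 FPKM in WT over 8 genes, none at 0, so that the groups nearly touched, and of these Pdgfrb, Lum, Col1a1 and Col3a1 passed as lower. The part of these cells in the Cd81 value was not tested.

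Elsewhere in the Kcnq1 domain no gene passed. The cell cycle inhibitor gene Cdkn1c was at 11.4 to 16.2 FPKM in KO and 13.1 to 19.7 FPKM in WT (log2 difference -0.11, SE 0.12, limma adjusted p = 0.728). Kcnq1, a potassium channel gene, was at 0.409, 0.273, 0.307 and 0.301 FPKM in KO and at 0.413 to 0.726 FPKM in WT, without overlap but by a narrow margin at WT male 1 (-0.78, SE 0.23, adjusted p = 0.111). Kcnq1ot1, the long RNA that silences the domain on the paternal copy, ran from 0.0400 to 0.0642 FPKM over all libraries (0.11, SE 0.36, adjusted p = 0.922). Tssc4, which encodes a splicing factor, and the transporter gene Slc22a18 had differences of 0.11 and -0.07 with errors of 0.11 and 0.33.

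On chromosome 6, the neighbours Peg10 and Sgce had negative differences and Asb4 a positive one, and none passed. Peg10, a retrotransposon-derived gene, was at 0.148, 0.241, 0.0866 and 0.145 FPKM in KO and 0.254 to 0.585 FPKM in WT, without overlap (-1.26, SE 0.36, limma adjusted p = 0.0994). Sgce, encoding epsilon-sarcoglycan, was at 7.82 to 9.24 FPKM in KO and 8.83 to 12.9 FPKM in WT (-0.34, SE 0.09, adjusted p = 0.0858). Asb4, a ubiquitin ligase subunit gene, stood at 0.564, 0.238, 0.462 and 0.381 FPKM in KO and 0.0789 to 0.332 FPKM in WT (1.40, SE 0.37, adjusted p = 0.0812). Ppp1r9a, which encodes an actin-binding scaffold, gave -0.32 (SE 0.16, adjusted p = 0.303). Mest, a marker of fat mass expansion, was at 0.716, 0.817 and 0.687 FPKM in WT females and 0.171 to 0.323 FPKM in all other libraries. Its averaged difference was -0.96 (SE 0.24, adjusted p = 0.0661), and 21.2% of its 50-base stretches also occur in the antisense neighbour Copg2 (-0.16, SE 0.08, adjusted p = 0.326). Mest passed with a pseudocount of 1 FPKM (adjusted p = 0.0420) and in the ordinary linear model (unadjusted p = 0.00295).

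Slc38a4, an amino acid transporter gene, had the second highest positive difference. It was at 0.744, 0.197, 2.59 and 1.19 FPKM in KO female 1, KO female 2, KO male 1 and KO male 2 and at 0.131 to 0.414 FPKM in WT, so KO female 2 lay within the WT range (1.92, SE 0.46, limma adjusted p = 0.0652). It passed under quantile normalization (adjusted p = 0.0469) and without KO male 2 (0.0445). Its order over the 4 libraries labelled KO was that of the muscle marker sums, and in WT it was highest where that sum was highest and lowest where it was lowest, while the 3 WT libraries between ran the other way. The part of muscle RNA in its values was not tested. Gnas was at 2526 to 3485 FPKM in KO and 1888 to 2952 FPKM in WT (0.27, SE 0.13, adjusted p = 0.311). Its value sums isoforms expressed from either parental copy.

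The Dlk1-Meg3 domain on chromosome 12 gave no call. Dlk1, which encodes the preadipocyte factor that holds back fat cell differentiation, was at 0.669 to 1.38 FPKM in KO and 0.660 to 1.48 FPKM in WT (log2 difference -0.16, SE 0.32, limma adjusted p = 0.860). The noncoding RNAs Meg3, Rian and Mirg, made from the maternal copy, had differences of -0.31, -0.19 and -0.78 with errors of 0.31, 0.14 and 0.36. Meg3 was at 3.22 and 2.70 FPKM in the KO females, 2.17 FPKM in KO male 2 and only 0.817 FPKM in KO male 1, against 1.75 to 3.26 FPKM in WT.

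In the domain of Snrpn and Ube3a on chromosome 7, the paternally expressed neighbours Ndn and Magel2 had high values in WT females. Ndn, encoding necdin, a growth suppressor, was at 38.1, 36.4 and 29.3 FPKM in WT females, 15.5 and 19.2 FPKM in WT males and 18.4 to 23.0 FPKM in libraries labelled KO (-0.29, SE 0.12, limma adjusted p = 0.220). Magel2 was at 0.703, 0.436 and 0.221 FPKM in WT females and 0.0705 to 0.220 FPKM elsewhere (-0.74, SE 0.51, adjusted p = 0.486). The splicing protein gene Snrpn and the ubiquitin ligase gene Ube3a differed by 0.10 and -0.16, with errors of 0.13 and 0.10.

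Among the other members, the translational regulator gene Impact (-0.38), the phosphatase gene Inpp5f (-0.43), the zinc finger genes Plagl1 (-0.41) and Peg3 (-0.04), the splicing retrogene Zrsr1 (-0.28), the vesicle tether gene Trappc9 (-0.15) and the AMP deaminase gene Ampd3 (-0.14) had negative differences, and the retrogene Nap1l5 (0.29) and the trafficking gene Commd1 (0.19) positive ones. None passed in limma, with adjusted p of 0.101 to 0.969. Zrsr2, the X-linked parent of Zrsr1, differed by 0.06 (SE 0.14, adjusted p = 0.882).

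**Figure D4:**
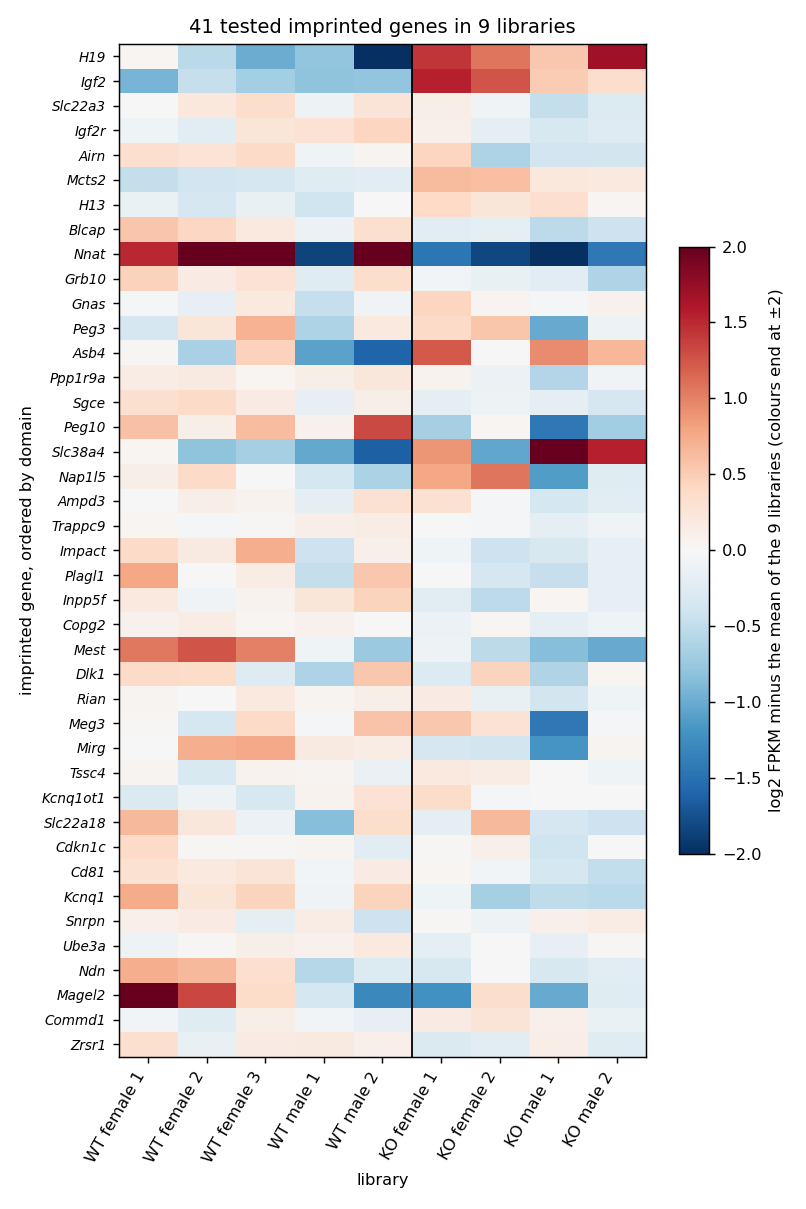
Log2 FPKM of the 41 tested members in each library minus the mean of that gene over the 9 libraries, with genes ordered by domain WT libraries left of the line and colours ending at ±2. Igf2, H19 and Mcts2 are above their mean in all libraries labelled KO, and Nnat is low in WT male 1 as in those libraries.

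By parental copy, 3 of 20 tested members expressed mainly from the maternal copy passed, beside 3.60% of all genes. They were H19, Blcap and Cd81, whose calls were lost in 9, 10 and 10 of 18 alternatives. Of the tested members expressed mainly from the paternal copy 2 of 19 passed. These were Igf2 and Mcts2, both listed with their differences known, and no other paternal member passed. Median log2 differences were -0.29 in the paternal group and -0.16 in the maternal group. Gnas and Grb10, whose parental copy depends on isoform or tissue, were left out of both groups. As a description of sequence, 59 RefSeq start windows were found for 39 members, with chromosome 18, and so Impact, left out. These windows had a median of 14 CpG, against 7 in all 32851 windows. The motif TGCCGC, which the imprint-protecting factor ZFP57 recognises when methylated, was searched on both strands and occurred in 14 of the 59 windows (23.7%) and in 11.6% of all windows, among them the windows of Mcts2 and Nnat and 1 of the 4 of Igf2. The motif itself contains a CpG, and the shares were not compared at equal CpG content. Overlapping windows were counted singly, such as those of Mest from 30737800 and from 30737803, each with the motif.

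A further list of 50 genes reported as imprinted had 37 tested members, of which 1 passed, beside 3.60% of all genes. This was Cdh15, an adhesion protein gene of muscle cells, at 0.453, 0.246, 0.631 and 0.398 FPKM in libraries labelled KO and 0.0394 to 0.130 FPKM in WT (log2 difference 2.43, SE 0.31, limma adjusted p = 0.0238). The muscle marker sums given above differ between the same groups. Of 20 genes that set or keep imprints, such as the methyltransferase gene Dnmt1 and its partner Uhrf1, 18 were tested and 0 passed in limma, beside 3.60% of all genes. At an unadjusted p under 0.05 there were 3 of the 18 (20.2% of all genes), and at a p under 0.01 in the ordinary model 0 (7.54%). Uhrf1 had the lowest limma p, with 1.32 to 3.801 FPKM in WT (-0.88, SE 0.37, adjusted p = 0.232). It was at 0.933, 0.833 and 0.771 FPKM in KO female 1, KO female 2 and KO male 2. Only KO male 1, at 2.54 FPKM, lay within the WT range. Dnmt1 was also highest in KO male 1 (4.81 FPKM), with 1.81 to 2.40 FPKM in WT. The demethylase gene Tet3 followed Uhrf1 (-0.36, SE 0.15, limma adjusted p = 0.232).

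Split by sex, Igf2 and Mcts2 passed in females, where 0.0204% of all genes did (3 genes). Both were listed with their differences known, and no other member passed in females. The differences in females were 2.10 for Igf2 (SE 0.16, limma adjusted p = 0.0186) and 1.02 for Mcts2 (SE 0.09, adjusted p = 0.0216). The ordinary model gave 4 members at a p under 0.01 (3.43% of all genes), Igf2 and Mcts2 among them. The limma calls were lost without either KO female, WT female 1 or WT female 2, when 0 members passed. In males 0 of 41 passed in limma (0.0136% of all genes), with 11 members at an unadjusted p under 0.05 (16.6% of all genes). The ordinary model gave 5 members in males at a p under 0.01 (5.29% of all genes). Igf2 and Mcts2 are in both of these counts. In the male limma contrast Igf2 differed by 1.23 (SE 0.18, adjusted p = 0.0659), Mcts2 by 0.43 (SE 0.10, adjusted p = 0.0975) and H19 by 2.74 (SE 0.59, adjusted p = 0.0926). Without KO male 2 there were 3 calls in males and without WT male 1 there were 2, in fits that leave 1 library in a group and assume that it varies like the others.

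The genotype difference itself did not differ between the sexes past the threshold for any member. For the male difference less the female difference, 0 of 41 members and 0 of all genes passed in limma. At an unadjusted p under 0.05 there were 6 members, beside 7.01% of all genes, namely Igf2, Mcts2, Ndn, Slc38a4, Igf2r and Nap1l5. Mcts2 was the 1 member at a p under 0.01 in the ordinary model (1.66% of all genes). Igf2 and Mcts2 were listed with their differences known, so these counts include members chosen with earlier results in hand. Igf2 had an interaction of -0.88 (SE 0.24, adjusted p = 0.624), Mcts2 of -0.58 (SE 0.13, adjusted p = 0.614) and Ndn of 0.89 (SE 0.24, adjusted p = 0.624). Without KO male 2, 2 members passed, Meg3 and Nap1l5, again with a lone KO male. Averaged over genotype, males minus females gave 0 calls of 41, with 8 at an unadjusted p under 0.05 (10.4% of all genes) and 5 at a p under 0.01 in the ordinary model (3.14% of all genes). Igf2 is in both of these counts. The members had a median of -0.24 with 34 negative values, beside 0.01 for all genes. Nap1l5 had the lowest adjusted p (-1.14, SE 0.20, adjusted p = 0.164), with KO females at 5.75 and 7.07 FPKM, KO males at 1.55 and 2.83 FPKM, and 3.35 to 4.36 FPKM in WT females and 2.15 to 2.61 FPKM in WT males.

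**Figure D5:**
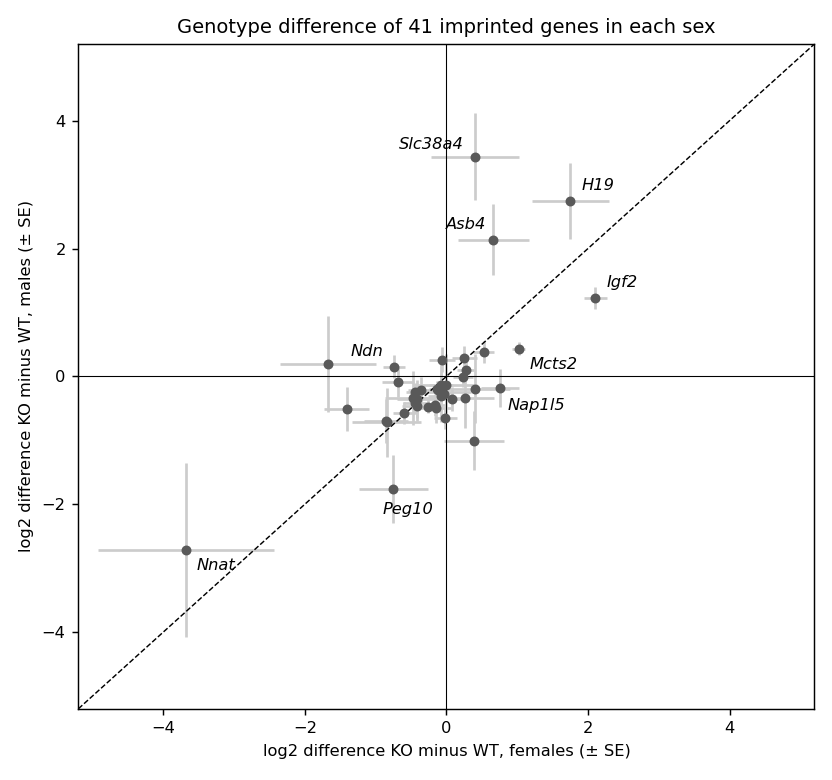
Log2 difference between libraries labelled KO and WT in females (horizontal) and in males (vertical) for the 41 tested members, with bars of 1 SE and a dashed line of equality. Igf2 lies at 2.10 and 1.23 and Mcts2 at 1.02 and 0.43, below the line, while H19 (1.75 and 2.74) and Slc38a4 (0.40 and 3.44) lie above it.

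Other cell type markers gave these sums of FPKM. Brown adipocyte markers, Ucp1 among them, were at 6401 to 8284 in KO and 6024 to 7844 in WT over 11 genes, none at 0, so the defining markers of the labelled tissue were present. Endothelial markers were at 93.6 to 147 and 122 to 159, and nerve and Schwann cell markers at 39.9 to 67.8 and 38.0 to 53.0, with Tubb3, Dbh and Snap25 listed at 0 in some libraries. Macrophage markers were at 6.15 to 47.5 and 9.38 to 25.4, and lymphocyte markers at 0.970 to 125.8 and 1.08 to 2.51, in both cases highest in KO male 1. All of these sums overlapped between KO and WT. For macrophage markers the overlap came from KO male 1 alone, with 8.12, 6.15 and 6.55 in KO female 1, KO female 2 and KO male 2. Of the 11 brown adipocyte markers 0 passed in limma, beside 3.60% of all genes. At an unadjusted p under 0.05 in limma there were 6 of them (20.2% of all genes). Over the 11 markers, 5 differences were positive and 6 negative.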

How the data were processed

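RNA-seq of brown adipose tissue was analysed from 9 mice. Per the labels and methods, the authors made TruSeq libraries after poly A selection, sequenced read pairs, converted them with bcl2fastq 1.8.4, aligned them to mm10 with TopHat 2.0.11, and named Bowtie for abundance estimates. The deposited values are FPKM, 1 table per library, and the annotation and strand setting are not given in the sources used here. Depth was judged from steps among low values and lay between 0.914 and 1.14 across the libraries on a common scale.

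Log2 FPKM without pseudocount of the 14675 genes above 0 in all 9 libraries was fitted in limma 3.58.1 (R 4.3.3) with a mean per group and a mean-variance trend, so the terms are those of the methods. The genotype and sex contrasts were averaged over the other factor and the test was moderated, unlike the ordinary model per gene at p under 0.01 in the methods, which was an alternative. Calls use a Benjamini-Hochberg adjusted p under 0.05 over all genes. Single genes were also compared by exact permutation over all splits of 4 and 5 libraries. Titles number the animals, and replicates are numbered in accession order. The members, lists and tests were chosen with earlier results of these data known. All 47 members were named, and from 3 further lists the genes that passed or the 2 with the lowest p. Positions are from GENCODE M21 (GRCm38, the same assembly as mm10), where all 47 members were found. Start windows are from RefSeq GRCm38.p6 and were found for 39 members, with chromosome 18, and so Impact, left out. Alternatives were pseudocounts, filters, scalings, fits and leaving out single libraries. Python 3.11.15, scipy 1.17.1 and matplotlib 3.10.9 were used, and the fit was tested on simulated data.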

Additional observations from a re-analysis of the deposited data

Results flagged for a closer look

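Of 82 groups checked (the KO and WT libraries of each of the 41 tested members, on the log2 scale), 1 held a library whose gap to its nearest neighbour took up more of the group's range than Dixon's critical value allows. This was Kcnq1ot1 in KO female 1, at 0.0642 FPKM where the other 3 libraries labelled KO lay at 0.0490 to 0.0494 FPKM. Chance gives about 1 such group in 20, or 4.1 of 82.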

How the results depend on the processing

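For KO minus WT over both sexes, 5 members were called (3 higher and 2 lower). The count was 2 (both higher) without a filter and with a pseudocount of 0.1 FPKM, 3 (all higher) under median centring and 2 without the mean-variance trend, and 1 to 7 with single libraries left out. In females the 2 calls became 1 under median centring, 1 under quantile normalization, 0 without the trend and 4 in the ordinary linear model at an unadjusted p under 0.01, and 0 to 2 with single libraries left out. That model gave 5 calls in males, 1 for the interaction and 5 for sex, where limma gave 0, and leaving out single libraries gave 0 to 3, 0 to 2 and 0 to 1. Median centring moved the median difference of all genes in females from -0.07 to 0.04 and that of the interaction from -0.01 to -0.12. Igf2 and Mcts2 remained called over both sexes in each alternative, except Mcts2 without KO female 1. Of 727 values of single members under an alternative, 675 kept direction and call, 30 lost the call, 9 gained it and 13 changed sign, all in members that were not called. Peg3 changed sign under median centring (0.017), and with single libraries left out Peg3 ran from -0.27 to 0.19, Dlk1 from -0.45 to 0.13, Meg3 from -0.66 to 0.046, Snrpn from -0.044 to 0.24 and Slc22a18 from -0.37 to 0.23. The cause of these changes was not tested. No paired analysis was possible because the labels number animals and pair none. Fragment counts are not used here, so no counting error stands behind single values.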
